A study of Mus musculus with 10 samples.

Results

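Carbonic anhydrases, the enzymes that interconvert carbon dioxide and bicarbonate, were examined in livers that lack both macroH2A genes. The 10 members looked for were Car1, Car2, Car3, Car4, Car5a, Car8, Car9, Car12, Car13 and Car14, and each row of the expression table (a probe set) counted if its annotation gave a member as its only gene symbol. By this rule 8 of the 10 members were found, on 10 rows, out of 22180 genes with a row of their own. Car1, Car4, Car8, Car12, Car2 and Car13 had 1 row each, and Car3 and Car9 had 2 each. Car5a and Car14 occurred only on rows shared with another gene. The family was chosen on measured values, because Car1 and Car3 were already known to be lower in the double knockout livers of this series, so their differences are given as a description, with no p-value and no weight as evidence.

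Whole livers came from male mice of the strain 129/S6 (taconic), aged 2 months, kept on low fat chow and killed in the morning after an overnight fast of about 16 hours. One group of 5 arrays was wild type and the other 5 were macroH2A1 macroH2A2 double knockout. Both groups shared the strain, sex, age, diet and fast, and no transgene or drug is named for either. The labels do not state that every sample was a separate animal, so p-values measure the spread between these samples. MacroH2A proteins are variants of histone H2A with a large extra domain. All values below are log2 expression levels or differences between them, double knockout minus wild type.

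The family works in several places of the cell. Car1, Car2, Car3 and Car13 are cytosolic, Car5a is mitochondrial and supplies bicarbonate to urea synthesis and gluconeogenesis, and Car4, Car9, Car12 and Car14 sit on the cell surface with the active site outside. Car8 belongs to the carbonic anhydrase-related proteins, which have lost a zinc-binding residue and with it the activity. Car3 is a slow enzyme that is abundant in liver, fat and muscle, and in rodent liver it is best known as a protein of males that depends on growth hormone. Car1 and Car2 are the major isoforms of red blood cells.

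The targeted gene Macroh2a1 had a level of 9.60 ± 0.07 in wild-type arrays, against 9.11 ± 0.07 in double knockout arrays (SD, n = 5 each), and every double knockout array lay below every wild-type array. Macroh2a2 was at 6.32 ± 0.28 and 6.12 ± 0.19 (SD, n = 5 each) and its groups overlapped. The annotation does not say whether these rows fall inside the deleted sequence. Hepatocyte markers were measured in both groups, with list means of 13.29 to 13.37 in wild-type and 13.29 to 13.32 in double knockout arrays. As a guide to background, the 95th percentile of 1108 olfactory receptor rows was 6.54. Over all 25335 rows tested, 224 (0.884%) were called at a limma adjusted p under 0.05, and the groups did not overlap for 3.90%. The count was 64 to 144 when 1 of wild-type replicates 2, 3 and 4 or double knockout replicates 2, 3, 4 and 5 was left out. Pancreas markers stood apart on 4 arrays, wild-type replicates 4 and 5 (marker means 9.99 and 11.10) and double knockout replicates 1 and 2 (8.81 and 9.02), against 6.18 to 6.91 on the other arrays. Values without these 4 arrays are given beside the differences of Car1, Car2, Car3, Car4, Car8, Car12 and the shared rows, and beside the correlation of Car1 with Car3.

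Car3 was lower in all double knockout livers. Its row with the highest mean stood at 13.58, 13.39, 13.30, 13.42 and 13.45 in wild-type replicates 1 to 5. In double knockout replicates 1 to 5 it stood at 12.69, 13.07, 12.57, 12.38 and 12.66. The groups did not overlap, and double knockout replicate 2 came nearest to the wild-type arrays. The means were 13.43 ± 0.10 and 12.67 ± 0.25 (SD, n = 5 each), a difference of -0.75 (SE 0.10, 95% interval -0.98 to -0.52), or 1.69-fold lower. The highest value on any array was 14.37, and saturation of bright probes was not read here.

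The second Car3 row had wild-type levels of 9.19, 9.31, 9.05, 9.14 and 9.16 in replicates 1 to 5. Its double knockout levels were 8.40, 8.89, 8.44, 8.24 and 8.85. Again the groups did not overlap, with replicates 2 and 5 the highest of the double knockout arrays. The difference was -0.61 (SE 0.12, 95% interval -0.86 to -0.35), and -0.67 (SE 0.15) without the 4 arrays of high pancreas marker mean. After each group's mean was subtracted, the rows of Car3 had a correlation of 0.73 over the 10 arrays, a description only, since they share the same RNA and may share probes. The annotation used here gives neither the strand nor the target region of a row. In the RefSeq table (GRCm38.p6) the long non-coding gene Gm41999 overlaps Car3 by 528 bases, and which of these genes a row measures was not tested.

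Car1 was the other member lower in all double knockout livers. Its levels were 9.33, 9.28, 9.22, 9.77 and 9.76 in wild-type replicates 1 to 5 and 8.85, 8.94, 8.82, 8.68 and 8.62 in double knockout replicates 1 to 5. The groups did not overlap, and wild-type replicates 4 and 5 lay well above the other 3 wild-type arrays. The means were 9.47 ± 0.27 and 8.78 ± 0.13 (SD, n = 5 each), a difference of -0.69 (SE 0.11, 95% interval -0.94 to -0.44), or 1.61-fold lower. In whole liver, fewer cells that hold a transcript and less of it per cell cannot be told apart.

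The 2 high Car1 arrays were those with the most pancreas marker signal, and in the double knockout group replicates 1 and 2 were highest on both measures. Of 12 pancreas markers measured, 10 had a mean level above 6.54, and the list mean ran from 6.18 to 11.10 in wild-type and from 6.24 to 9.02 in double knockout arrays. Without the 4 arrays of highest marker mean, Car1 was at 9.28 in the 3 remaining wild-type and 8.70 in the 3 remaining double knockout arrays. The difference there was -0.57, with the groups at 9.22 to 9.33 and 8.62 to 8.82. Groups that are apart over all arrays are apart in any part of them, so this separation adds nothing. With the marker mean as a covariate it was -0.64 (SE 0.06). For the Car3 row with the highest mean the difference was -0.88 without these arrays and -0.74 (SE 0.10) with the covariate.

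**Figure D1:**
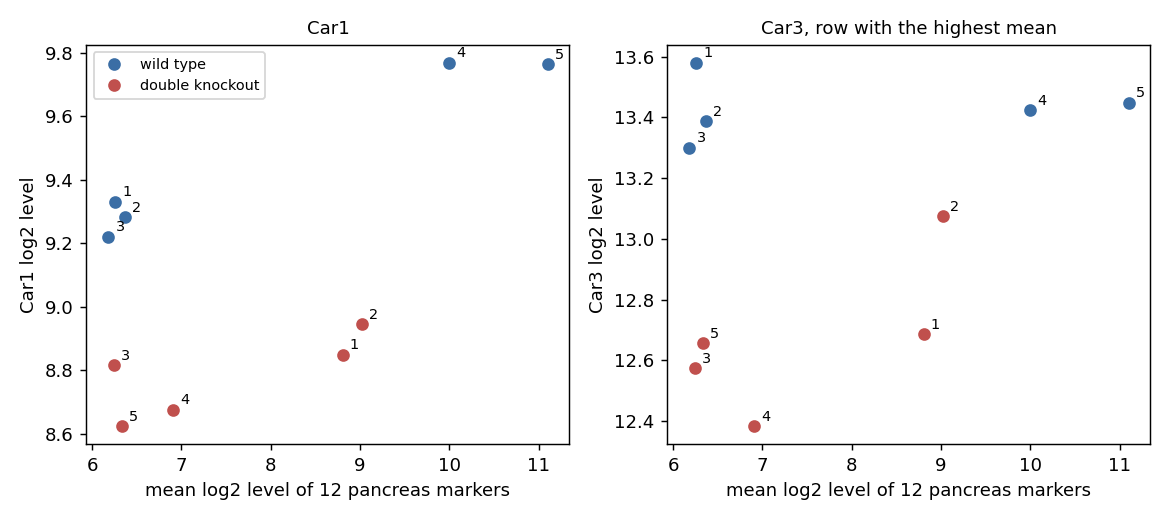
Log2 level of Car1 (left) and of the Car3 row with the highest mean (right) against the mean log2 level of 12 pancreas markers, 1 point per array, numbered by replicate. Wild-type replicates 4 and 5, with marker means of 9.99 and 11.10, are the highest in Car1 at 9.77 and 9.76. The groups are apart over all arrays for both genes, and so necessarily also at low marker means.

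Car2, the fast enzyme of the same gene cluster, was not called in either direction. It stood at 8.04, 8.10, 8.09, 7.63 and 7.86 in wild-type and at 8.17, 8.17, 7.94, 8.23 and 7.83 in double knockout replicates 1 to 5. The groups overlapped over most of their range. The difference was 0.13 (SE 0.10, 95% interval -0.10 to 0.35, limma adjusted p = 0.616). It changed sign to -0.07 without the 4 arrays of high pancreas marker mean. Car13, the remaining cytosolic member, had 6.69, 6.98, 6.76, 6.80 and 6.65 in wild-type and 6.79, 6.76, 6.69, 6.92 and 6.82 in double knockout arrays. Its difference was 0.02 (SE 0.07, 95% interval -0.12 to 0.17, limma adjusted p = 0.924).

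Haemoglobin rows, unlike Car1, were not lower. The 5 rows shared between haemoglobin genes all had higher means in double knockout arrays, and their mean level was 7.50 to 8.54 in wild-type and 8.61 to 8.95 in double knockout arrays. The only called row differed by 0.66 (SE 0.11, limma adjusted p = 0.0241) and had a mean level of 5.99, below the background guide. The largest difference, 1.66 (SE 0.37, limma adjusted p = 0.0645), was on a row above it whose groups did not overlap. The row with the highest mean level, 13.28, had 0.53 (SE 0.12, limma adjusted p = 0.0709). Limma adjusted p ran from 0.0526 to 0.0738 over the rows not called. With the haemoglobin mean as a covariate Car1 had -0.58 (SE 0.21), and the Car3 rows had -0.52 (SE 0.17) and -0.38 (SE 0.20). The haemoglobin mean itself did not overlap between the groups, so adjusting for it also removes part of any genotype difference.

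**Figure D2:**
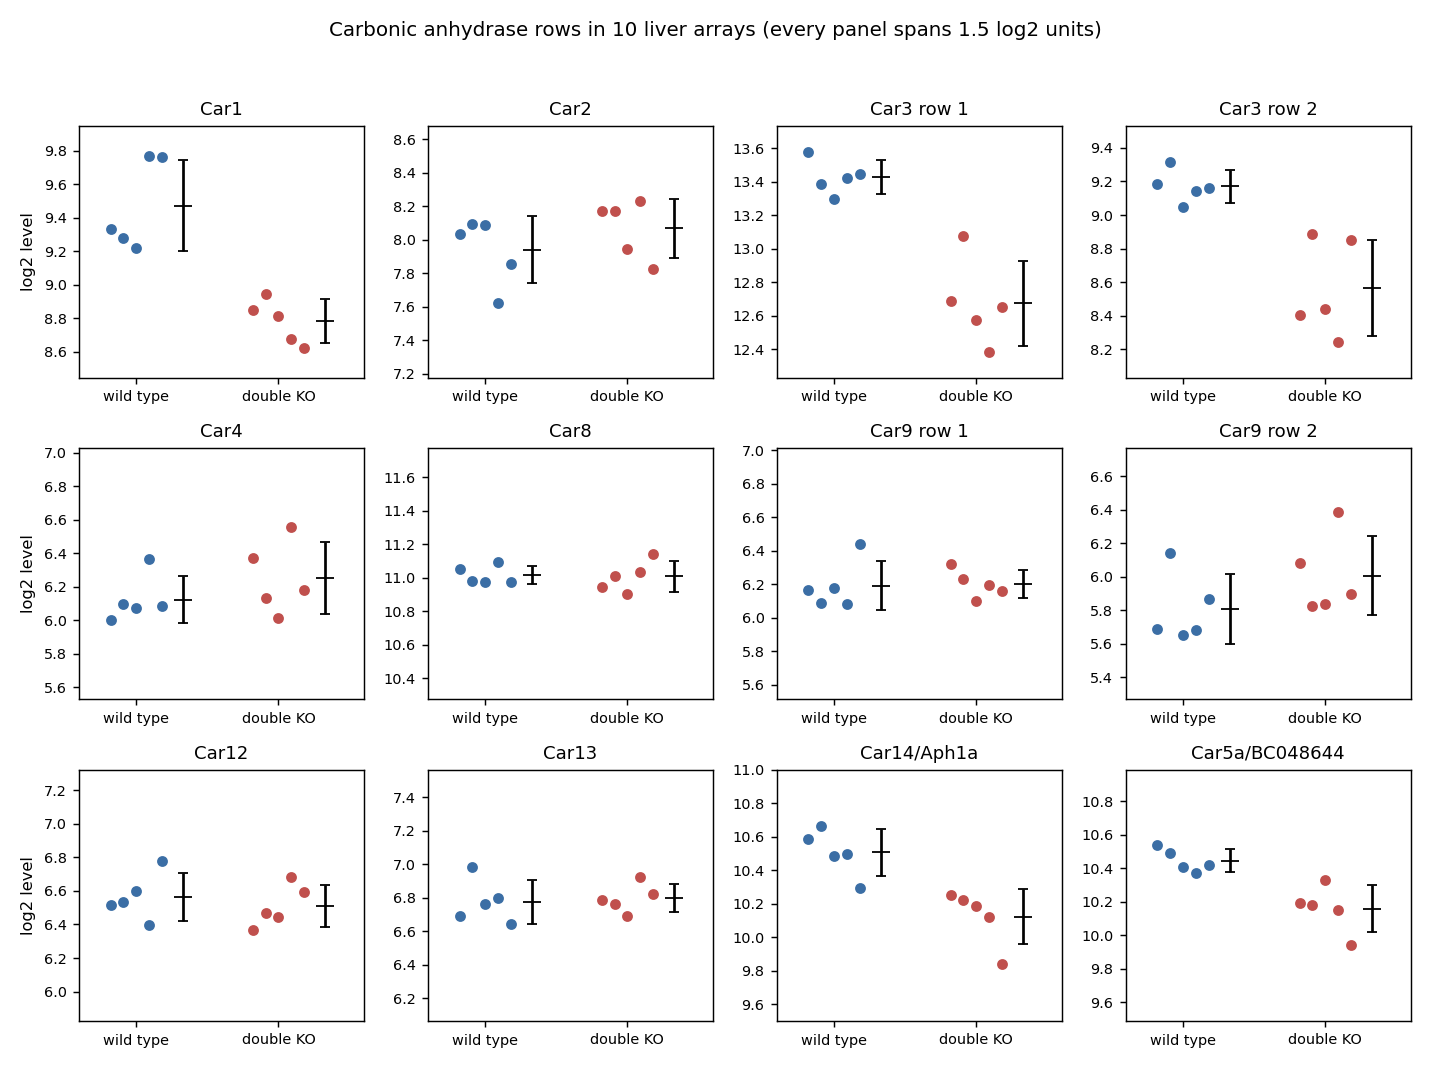
Log2 level of every carbonic anhydrase row, 1 point per array in replicate order from left to right, for wild-type (blue) and double knockout (red) livers, with the group mean and SD (n = 5) as a bar. Every panel spans the same log2 range. The groups are apart for Car1, both rows of Car3 and the 2 rows shared with Aph1a and BC048644, and overlap for Car2, Car4, Car8, Car9, Car12 and Car13.

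Car5a, the mitochondrial isoform, and Car14, a membrane isoform, could be followed only on rows that also carry another gene, so neither value belongs to the carbonic anhydrase alone. The row of Car5a and the long non-coding gene BC048644 stood at 10.54, 10.49, 10.41, 10.37 and 10.42 in wild-type replicates 1 to 5. In double knockout replicates 1 to 5 it stood at 10.19, 10.18, 10.33, 10.15 and 9.94. All double knockout arrays lay below all wild-type arrays, replicate 3 by the smallest margin. The difference of -0.29 (SE 0.07, 95% interval -0.43 to -0.14) was not called (limma adjusted p = 0.0679). It was called without double knockout replicate 3 (-0.33, limma adjusted p = 0.0485), and was -0.34 without the 4 arrays of high pancreas marker mean (limma adjusted p = 0.215). The exact permutation p was 0.00794, the smallest that 5 against 5 arrays allow. Groups that do not overlap always give this value, so it adds nothing to the separation.

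The row of Car14 and Aph1a, a subunit of the gamma-secretase protease, stood at 10.59, 10.66, 10.49, 10.50 and 10.29 in wild-type replicates 1 to 5. Its double knockout levels were 10.25, 10.22, 10.18, 10.12 and 9.84. The groups were apart by a narrow margin, and replicate 5 was the lowest array of both groups. The difference was -0.38 (SE 0.09, 95% interval -0.57 to -0.19) and was not called (limma adjusted p = 0.0654, exact permutation p again 0.00794 because the groups were apart). It was called in limma without wild-type replicate 5 (-0.44, adjusted p = 0.0395) and with a filter on low levels (adjusted p = 0.0487). Without the 4 arrays of high pancreas marker mean it was -0.53 (limma adjusted p = 0.0963). At a looser limma adjusted p under 0.1, which both rows pass, 2.31% of all rows tested were called. All double knockout arrays lay lowest for 2.15% of all rows tested. In the RefSeq table Aph1a overlaps Car14 by 825 bases and BC048644 overlaps Car5a by 747 bases.

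Promoters were looked up for all 10 members in a RefSeq table (GRCm38.p6, 250 bases before to 50 after the start site), which gave those of Car4, Car5a, Car9, Car12 and Car14. The 2 shown are of the members whose shared rows lay lower in all double knockout livers. They are read 5′ to 3′ on the gene's strand, with matches to the motifs searched in capitals. The Car5a promoter lies at chr8:121944863-121945162 and the Car14 promoter at chr3:95904636-95904935, both on the minus strand.
Car5a: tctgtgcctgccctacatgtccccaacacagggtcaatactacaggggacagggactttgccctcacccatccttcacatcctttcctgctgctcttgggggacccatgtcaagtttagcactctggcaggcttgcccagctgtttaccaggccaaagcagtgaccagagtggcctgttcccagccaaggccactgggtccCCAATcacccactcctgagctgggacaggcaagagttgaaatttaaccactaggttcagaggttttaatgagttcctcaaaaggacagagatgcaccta
Car14: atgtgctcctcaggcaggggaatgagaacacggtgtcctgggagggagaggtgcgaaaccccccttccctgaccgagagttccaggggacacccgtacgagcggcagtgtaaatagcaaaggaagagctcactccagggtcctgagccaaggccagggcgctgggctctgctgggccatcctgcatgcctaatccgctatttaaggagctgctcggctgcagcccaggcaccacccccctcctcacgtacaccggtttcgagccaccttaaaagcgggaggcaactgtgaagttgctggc
The motifs, searched on both strands and found without overlap in these windows, were TATAAA (in 13.6% of all 32851 promoters), CCAAT (37.4%), AGATAA (11.2%), CACGTG (7.15%) and TTCNNNGAA (8.30%). Car5a had 1 match, CCAAT, starting 49 bases before the start site. The Car14 window had 0 matches. Such matches describe letters in a window and not bound sites.

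The surface isoforms with rows of their own were near the background guide. Car4, which is held to the membrane by a lipid anchor, had levels of 6.001, 6.10, 6.08, 6.36 and 6.08 in wild-type and 6.37, 6.13, 6.02, 6.56 and 6.18 in double knockout replicates 1 to 5. The groups overlapped, with a difference of 0.13 (SE 0.10, 95% interval -0.09 to 0.34, limma adjusted p = 0.602). Without the 4 arrays of high pancreas marker mean it was 0.19 (limma adjusted p = 0.567). Car9, known from hypoxic cells, had 1 row at 6.19 ± 0.15 and 6.20 ± 0.08 and another at 5.81 ± 0.21 and 6.01 ± 0.24 (SD, n = 5 each). Neither row was called, with differences of 0.01 (SE 0.07, limma adjusted p = 0.970) and 0.20 (SE 0.12, limma adjusted p = 0.478). Car12 ranged from 6.39 to 6.78 in wild-type and from 6.37 to 6.68 in double knockout arrays, a difference of -0.05 (SE 0.08, limma adjusted p = 0.812) that was 0.023 without those 4 arrays. The mean levels of Car4, of both Car9 rows and of Car12 did not exceed the olfactory 95th percentile.

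Car8, the inactive relative, was well above background and had the smallest standard error of the member rows. Its levels were 11.05, 10.98, 10.97, 11.09 and 10.97 in wild-type and 10.95, 11.01, 10.90, 11.04 and 11.14 in double knockout replicates 1 to 5. The double knockout arrays spread past the wild-type arrays on both sides. The difference was -0.01 (SE 0.05, 95% interval -0.12 to 0.11, limma adjusted p = 0.975), and it was 0.026 without the 4 arrays of high pancreas marker mean.

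Among the other members with a row of their own, no difference was detected. The 3 rows of Car1 and Car3 were among the 0.553% of all rows called lower, which is how the family was chosen, and nothing is read from it. Of the 7 rows of the other 6 members, 0 were called in limma, 0 had an unadjusted p under 0.05 and 0 had an exact permutation p under 0.05. Over all rows tested, 0.884% were called and 15.1% had an unadjusted p under 0.05, while the share for the exact permutation test was not computed. The rows of Car4, Car9 and Car12 did not exceed the background guide, which limits what they could show. For these 7 rows the differences ran from -0.05 to 0.20 with a median of 0.02, beside a median of -0.003 over all rows tested. Their 95% intervals reached from -0.22 at the lowest to 0.46 at the highest. An interval that spans 0 does not show that a level was the same in both groups.

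**Figure D3:**
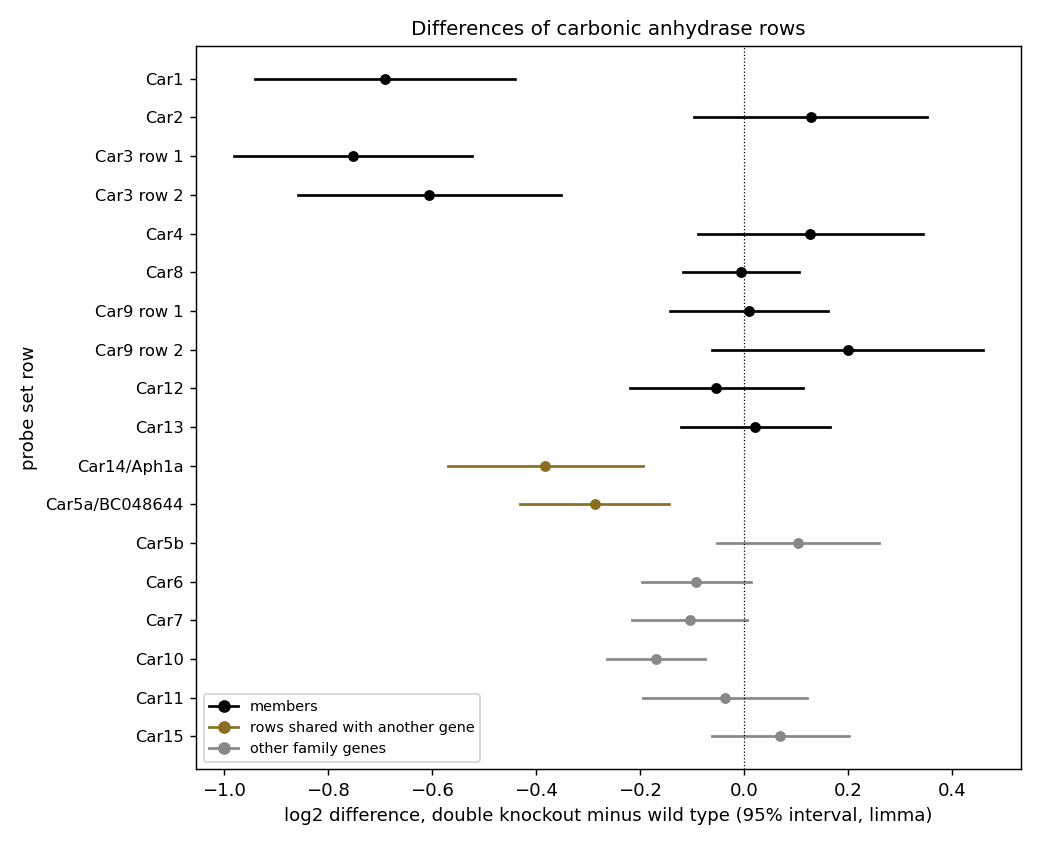
Log2 difference, double knockout minus wild type, with its 95% interval from limma, for the member rows (black), the rows shared with another gene (brown) and the other family genes (grey). Car1 and both rows of Car3 lie between -0.75 and -0.61, the shared rows at -0.38 and -0.29, and the other member rows between -0.05 and 0.20.

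The genes of Car13, Car1, Car3 and Car2 lie side by side on chromosome 3, within 259 kb (chr3:14641727-14900770, GRCm38.p6, RefSeq table). Car1 (chr3:14766214-14808365) and Car3 (chr3:14863538-14872381) are next to each other among the members, with Car13 and Car2 on the outer sides. The differences in this order were 0.02, -0.69, -0.75 and 0.13. Of the nearest genes with a row of their own, 5 on each side were examined. Among these 10 neighbours 0 were called in limma and 1, Gm9733, had an unadjusted p under 0.05, with 0.15 (SE 0.07, limma adjusted p = 0.325). Their differences ran from -0.15 for Lrrcc1, a centrosomal protein gene, to 0.15, and the groups overlapped for all 10. Over all rows tested 0.884% were called, 15.1% had an unadjusted p under 0.05 and the groups did not overlap for 3.90%. E2f5, a cell cycle transcription factor above background, had 0.02 (SE 0.05), and Rbis, a ribosome biogenesis gene, had 0.09 (SE 0.04). Only 3 of the 10 neighbours, E2f5, Rbis and Gm5150, had a mean level above 6.54.

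**Figure D4:**
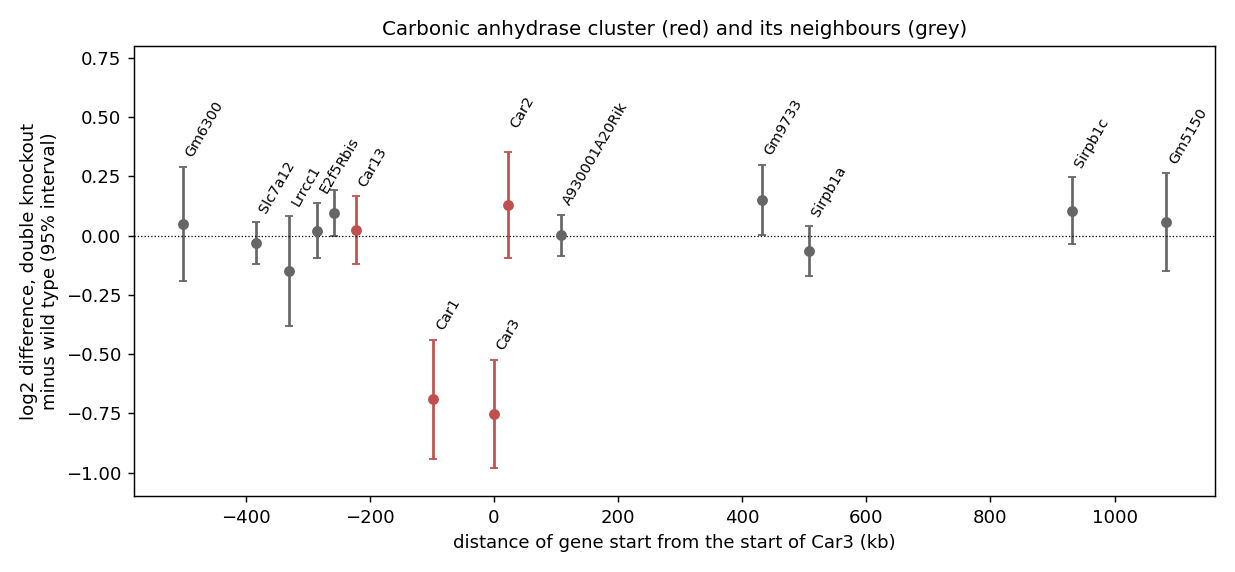
Log2 difference, double knockout minus wild type, with its 95% interval from limma, against the distance in kb from the start of Car3 to the start of each gene, for the 4 carbonic anhydrase genes of the cluster (red) and 5 neighbours on each side (grey). Car1 and Car3, at -0.69 and -0.75, stand below Car13 and Car2 and below all 10 neighbours, which lie between -0.15 and 0.15. The family was chosen because Car1 and Car3 were low, so their place here is a description only.

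Whether Car1 and Car3 also varied together among livers of 1 genotype was tested on deviations from each group's mean, which the choice of the family did not use. Over the 10 arrays Pearson's r was 0.36 (two-sided exact permutation within groups, p = 0.190) and Spearman's rho was 0.52 (exact permutation p = 0.127). This was the only relation tested. It passed without wild-type replicate 1 (r = 0.49, exact permutation p = 0.0257), and r was 0.75 over 8 arrays without the 2 arrays farthest from the median of Car1 (exact permutation p = 0.0639). It was 0.21 without double knockout replicate 2 (exact permutation p = 0.591) and 0.31 over the 6 arrays left without the 4 of high pancreas marker mean (exact permutation p = 0.583). Against the second Car3 row r was 0.05 (exact permutation p = 0.861). Of 15753 other rows with a mean level of at least 6, 16.6% had a higher r with Car3 than Car1 had.

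Predicted genes, pseudogenes, olfactory and vomeronasal receptors and small RNA genes were left out of the search for nearest patterns. The nearest patterns among the rest, by Pearson's r of the same deviations over 10 arrays, were different for the 2 genes. Those nearest to Car1 were Hoxaas3 (0.94), Fkbp2 (0.94), the pancreatic colipase Clps (0.94), the pancreatic chymotrypsin-like protease Ctrl (0.94) and the kallikrein Klk1 (0.93). The median r of Car1 with the 12 pancreas markers was 0.92, and that of Car3 was 0.33. Those nearest to Car3 were Erfe (0.96), Tnfrsf19 (0.96), Fabp7 (0.95), Fas (0.94) and Cox6a2 (0.92). None of these 10 genes was called in limma, with adjusted p from 0.285 to 0.967. The arrays share the pancreas signal described above, and with so many rows and 10 arrays high values of r arise easily.

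The other 6 genes of the family, Car5b, Car6, Car7, Car10, Car11 and Car15, had 0 called rows in limma, and 1 had an unadjusted p under 0.05, beside 15.1% of all rows tested. In the exact permutation test 2 had a p under 0.05, Car10 (0.00794) and Car6 (0.0397), both with a lower mean in double knockout arrays. The share of all rows that pass this test was not computed, so nothing is read from that count. Car6 had means of 4.92 and 4.82, below the background guide. The lowest limma p was that of Car10, an inactive relative known from brain, at 5.75 to 5.90 in wild-type and 5.59 to 5.72 in double knockout arrays. Its groups did not overlap, which fixes its exact permutation p and held for 3.90% of all rows tested. The difference of Car10 was -0.17 (SE 0.04, limma adjusted p = 0.0933), but both means were below the background guide. Car5b, the second mitochondrial isoform, had 8.11 ± 0.12 and 8.22 ± 0.12 (SD, n = 5 each), a difference of 0.10 (SE 0.07, limma adjusted p = 0.551). Car11, an inactive relative, had -0.04 (SE 0.07), the cytosolic Car7 had -0.10 (SE 0.05), the salivary Car6 had -0.09 (SE 0.05) and Car15 had 0.07 (SE 0.06). The median of the 6 was -0.06, beside -0.003 over all rows tested.

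Genes that move or use bicarbonate and protons were counted next. Of all rows tested, 0.884% were called and 15.1% had an unadjusted p under 0.05. Of 19 bicarbonate transporters measured, 10 had higher and 9 lower means and 0 were called, with a median of 0.01 and 2 at an unadjusted p under 0.05. The sodium bicarbonate cotransporter Slc4a4 was lower in all double knockout arrays, with -0.15 (SE 0.04, limma adjusted p = 0.103). Slc4a10 had 0.22 (SE 0.08, limma adjusted p = 0.199) and Slc26a8 had 0.08, both with a mean level below the background guide. Of 13 sodium-proton exchanger and monocarboxylate transporter genes, 7 had higher and 6 lower means and 0 were called, with a median of 0.001 and 2 at an unadjusted p under 0.05. The lactate and ketone carrier Slc16a1 had 0.26 (SE 0.07, limma adjusted p = 0.117), Slc9a3r1 had -0.18 and Slc9a3 had 0.25.

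A list of enzymes that take up bicarbonate, with the related gene Hlcs, had lower means for 6 of 10 members and a median of -0.06. In limma 0 were called, although 6 had an unadjusted p under 0.05, beside 15.1% of all rows tested. Cad, of pyrimidine synthesis, was higher in all double knockout arrays with 0.24 (SE 0.06, limma adjusted p = 0.0868), and the acetyl-CoA carboxylase Acacb had 0.38 (SE 0.11, limma adjusted p = 0.133). Mccc1, of leucine breakdown, had -0.19 (SE 0.06, limma adjusted p = 0.202). Carbamoyl phosphate synthetase Cps1 and pyruvate carboxylase Pcx, the mitochondrial users of bicarbonate that Car5a is known to serve, had 0.04 (SE 0.05) and -0.14 (SE 0.05). Cps1 and Pcx were picked after seeing their values.

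Lists tied to what Car3 is known for were counted beside all rows tested, of which 0.884% were called and 15.1% had an unadjusted p under 0.05. Of 19 male-biased, growth hormone-dependent genes measured, 2 were called and 11 had an unadjusted p under 0.05, with 8 higher and 11 lower means and a median of -0.03. The complement gene C6 fell by 0.71 (SE 0.10, limma adjusted p = 0.00685) and the major urinary protein Mup21 fell by 1.59 (SE 0.23, limma adjusted p = 0.00915). Among the higher means, Selenbp2 had 1.04 (SE 0.34, limma adjusted p = 0.177) and Elovl3 had 0.38 (SE 0.11, limma adjusted p = 0.137). Neither was called, and both were picked after seeing their values. In the growth hormone signalling list 1 of 12 was called and 3 had an unadjusted p under 0.05. Means were higher for 4 and lower for 8 of the 12, with a list median of -0.05. The called gene was Ghr, the hormone's receptor, which fell by 0.30 with an SE of 0.05 (limma adjusted p = 0.0212). Socs2 had 0.71 (SE 0.32, limma adjusted p = 0.314) and Igf1 had -0.01 (SE 0.05), both picked after seeing their values. Of 15 pericentral hepatocyte genes 1 rose, the ammonia channel Rhbg, by 0.58 (SE 0.10, limma adjusted p = 0.0279), and 5 had an unadjusted p under 0.05, with a median of -0.04. Of 10 periportal genes 0 were called in limma, 2 had an unadjusted p under 0.05 and the median was -0.05, with 0.36 for Cdh1, -0.15 for Hal and -0.07 for Pck1.

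Other tissues that hold Car1, Car2 or Car3 were checked by their markers. Of 7 adipocyte markers measured 0 were called in limma and 2 had an unadjusted p under 0.05, with a median of -0.01. Their list mean was 7.12 to 7.51 in wild-type and 7.30 to 7.67 in double knockout arrays, with 0.58 for Cidec, 0.59 for Fabp4 and -0.29 for Plin4, while the adipocyte hormone Adipoq, below the background guide, had 0.06. Of 10 skeletal muscle markers 0 were called and 0 had an unadjusted p under 0.05 in limma. The muscle list mean was 6.12 to 6.34 in wild-type and 6.16 to 6.21 in double knockout arrays, with -0.09 for Myl1, 0.06 for Mylpf and -0.04 for Tnnt3. Of 9 erythroid markers with a row of their own 0 were called and 2 had an unadjusted p under 0.05 in limma. Means were higher for 5 and lower for 4 of these 9, with a median of 0.02. The 3 of lowest p had -0.22 (Epor), -0.26 (Tfrc) and -0.13 (Klf1), while the red cell anion exchanger Slc4a1 had 0.13 and Rhag had 0.11, both picked after seeing their values. The erythroid list mean was 6.33 to 6.47 in wild-type and 6.33 to 6.48 in double knockout arrays. Mean levels exceeded the background guide for only 4 of 7 adipocyte, 4 of 10 muscle and 4 of 9 erythroid markers, which limits these checks. Of the markers named here, Adipoq, Myl1, Mylpf, Klf1 and Rhag did not exceed it.

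Markers of further cell types were set beside these. Of 15 macrophage markers all had higher means in double knockout arrays and 2 rose, Cd163 by 0.44 (SE 0.08, limma adjusted p = 0.0284) and Marco by 0.61 (SE 0.13, limma adjusted p = 0.0475). Over all rows tested 0.332% were called higher. Of the 15 markers 9 had an unadjusted p under 0.05, beside 15.1% of all rows tested, and the list median was 0.22. The macrophage list mean was 8.79 to 9.08 in wild-type and 9.03 to 9.31 in double knockout arrays. With it as a covariate Car1 had -0.96 (SE 0.15) and the Car3 row with the highest mean had -0.86 (SE 0.16), with 8 rows called over the whole table and 0 of them of members. The part of the macrophage markers in these differences was not tested. Of 8 cholangiocyte markers 1 rose, Krt23, by 0.84 (SE 0.13, limma adjusted p = 0.0161), and the list mean was 6.63 to 7.10 and 6.58 to 7.10. Of 12 pancreas markers 0 were called and 0 had an unadjusted p under 0.05 in limma, with 0.12 for Try5, -1.05 for Prss2 and -0.81 for Cela1. Of 8 hepatocyte markers 0 were called and 0 had an unadjusted p under 0.05 in limma, with -0.11 for Serpina1a, 0.05 for Hnf4a and -0.03 for Apob.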

How the data were processed

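RNA of 10 liver samples was measured on 10 arrays. The deposited values are log2 levels of probe sets. The submitters' processing notes name Affymetrix Expression Console. Version, summarisation method, normalization and genome build: not given in the sources used here. Scanner files and detection calls were not used here. Array medians lay between 6.43 and 6.46, and the number of arrays limits the precision. Rows were named through the platform annotation: 23521 of 41345 rows had 1 gene symbol, 1814 several and 16010 none. RefSeq tables of GRCm38.p6 gave positions and promoters.

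The 25335 rows with a symbol were fitted in limma 3.58.1 under R 4.3.3 (lmFit, eBayes, two-sided, group as the only term) with Benjamini-Hochberg adjustment over all of them. An adjusted p below 0.05 made a call. The script was tested on simulated data. List genes were represented by the row with the highest mean.

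Named were all members, other family genes and neighbours, from each list the called genes or else the 3 of lowest p, and the 5 nearest patterns of Car1 and Car3 (mean level of at least 6). Predicted genes, pseudogenes, olfactory and vomeronasal receptors, small RNA genes and other rows of the same gene were left out of these patterns. Members and lists were chosen with earlier results of these data known. Protein sequences were not used here. Alternatives were other eBayes options, array weights, normalizations, filters, a replicate block, covariates, leaving out arrays and an exact permutation test.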

Additional observations from a re-analysis of the deposited data

Results flagged for a closer look

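Within a group of 5 arrays, a single array lay far from the other 4 in 3 of 36 groups examined, where chance gives about 1 in 20. Car4 was at 6.36 in wild-type replicate 4 and at 6.001 to 6.10 in the other wild-type arrays. The first row of Car9 was at 6.44 in wild-type replicate 5 and at 6.08 to 6.18 in the others. Car15 was at 6.82 in wild-type replicate 1 and at 6.97 to 7.00 in the others.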

How the results depend on the processing

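The number of called rows, 224, was 75 over all rows of the table, 585 at an adjusted p under 0.1, 68 without the 4 arrays rich in pancreas markers, 8 with the macrophage mean and 0 with the haemoglobin mean as a covariate, and 64 to 253 without single arrays. Called member rows, 3, were 1 over all rows, 0 with either of those covariates and 1 to 3 without single arrays (1 without double knockout replicate 4). Car1 had -0.96 with the macrophage mean as a covariate, and the Car3 rows had -0.52 and -0.38 with the haemoglobin mean. Without single arrays Car1 ranged from -0.75 to -0.62, the Car3 rows from -0.85 to -0.68 and from -0.69 to -0.53, and r of Car1 with Car3 from 0.21 to 0.49. Car1 and Car3 kept their sign under all 23 alternatives, a description only, since their fall chose the family. The 3 called member rows were theirs too. In limma Car1 was not called in 6 of the 23, and the Car3 rows were not called in 2 and 12. Members near 0 changed sign without being called. Without the 4 arrays Car12 had 0.023, Car2 -0.074 and Car8 0.026. With the haemoglobin covariate Car13 had -0.036, Car2 -0.041, Car8 0.069 and the first Car9 row -0.077. Without single arrays Car12 ranged from -0.10 to 0.00036, Car13 from -0.011 to 0.073, Car8 from -0.039 to 0.020 and this Car9 row from -0.020 to 0.073. The cause was not tested.

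Replicate numbers share only a number: deviations of same-numbered arrays had correlations of -0.48 to 0.13, and 0 of 10 arrays correlated best with their own number. With the replicate block 76 rows were called, against 224 in the main fit. The member rows among them were the 2 of Car3, whose fall chose the family, so nothing is read from them. The row of Car14 and Aph1a was called in limma with this block (adjusted p = 0.0263).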
